A study of Oryza sativa with 36 samples.

Results

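Gene expression in the flag leaf of the rice variety CHT025 was compared between the first and the tenth day after flowering in the crop grown as early rice. The comparison rests on 6 of the 36 libraries of the series, chosen by their labels: 3 of CHT025 on day 1 and 3 of CHT025 on day 10, both early season. The other libraries of the series are of WFB, the second parent, and of WFYT025, the super-hybrid rice bred from both, and of CHT025 grown as middle rice. Each variety was sampled on both days in both seasons, with 3 libraries in each of the 12 groups. The labels name no treatment and no introduced allele for any group. Whether the 3 replicates of a group are separate plants is not stated, and p-values therefore measure only the spread between libraries, which may be technical. Days after flowering and anything else that differed between the samplings, such as the hour, which is not given in the sources used here, cannot be told apart, and neither can season and batch.

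The flag leaf is the last leaf a rice plant makes and the main source of sugar for the growing grain. In the days after flowering it fixes carbon, turns it into sucrose for export and stores a part as starch, and it later dismantles its chloroplasts and sends their nitrogen to the seed. Its transcripts also follow the circadian clock and respond within minutes to wounding, cold and drought through jasmonate, ethylene and abscisic acid signalling.

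All levels are FPKM, fragments normalised to gene length and to all mapped fragments, and a value after ± beside a mean level is the SD over the 3 libraries of a day. Of 34623 genes, 18585 reached 1 FPKM in at least 3 of the 36 libraries and were tested. A change is the day 10 minus the day 1 mean of log2(FPKM + 1), given with its standard error, from a limma fit over all 36 libraries, and a gene was called at a Benjamini-Hochberg adjusted p under 0.05. Gene roles and symbols beyond the deposited descriptions are textbook knowledge of rice and of Arabidopsis, attached by locus identifier.

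The 6 libraries were alike in their totals. FPKM summed to 557244, 558242 and 558004 on day 1 and to 542722, 537516 and 536065 on day 10, and the 10 leading genes held 13.8% to 14.1% of it on day 1 and 15.9% to 16.8% on day 10. The 8 flag leaf markers (Rubisco, its activase and other carbon fixation genes) summed to 35723 to 36011 FPKM on day 1 and 47321 to 49572 FPKM on day 10. Replicate 1 of both days stood apart in seed storage proteins. The 43 glutelin and prolamin genes, markers of endosperm, summed to 254.2, 4.8 and 4.7 FPKM in replicates 1, 2 and 3 of day 1 and to 174.8, 4.6 and 4.8 FPKM on day 10. A prolamin gene (PROLM29, LOC_Os12g17010) was at 23.4, 0 and 0.09 FPKM on day 1 and 12.2, 0 and 0 FPKM on day 10, so it was high in the first library of each day and at or near 0 in the others. Of the 28 storage protein genes tested, 0 were called, with 0 also under each alternative scaling. Over the other 30 libraries of the series the same sum ran from 3.1 to 647.4 FPKM. The 10 MADS-box genes of spikelet organs summed to 4.1 to 5.3 FPKM on day 1 and 9.6 to 11.6 FPKM on day 10, and 7 of them were at or near 0 in every library. Among the 5 housekeeping genes, 3 were called higher and 2 lower, with actin (LOC_Os03g50885) at 14.5 ± 1.34 FPKM on day 1 and 31.9 ± 1.79 FPKM on day 10. The part of storage protein and spikelet RNA in the results was not tested.

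**Figure D1:**
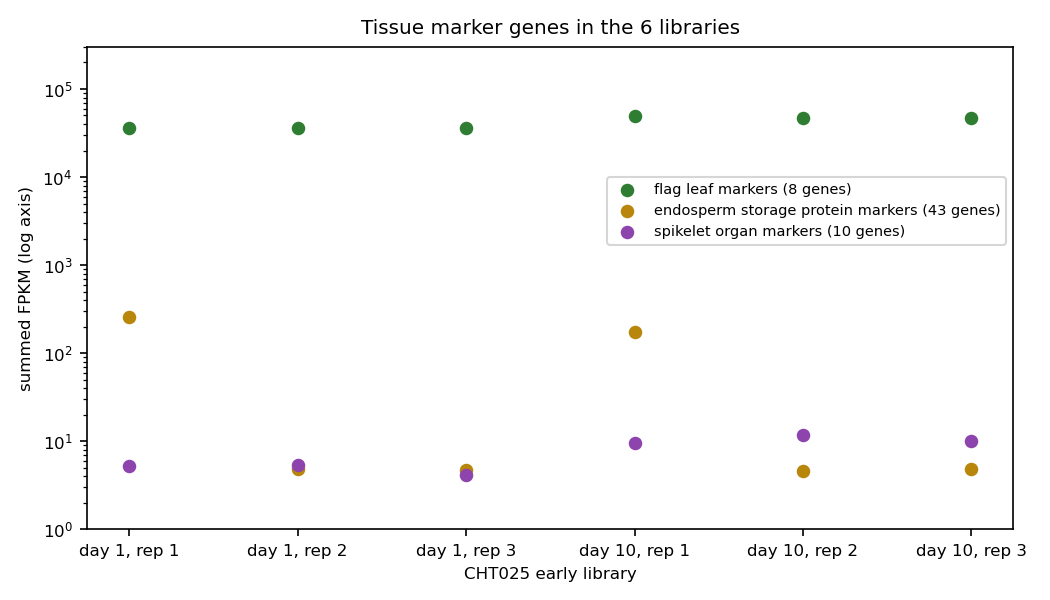
Summed FPKM (log axis) of flag leaf, endosperm storage protein and spikelet organ marker genes in each of the 6 CHT025 early libraries; each point is 1 library. The storage protein sum is 254.2 and 174.8 FPKM in replicate 1 of day 1 and day 10 and under 5 FPKM in the other 4 libraries, and the leaf markers run from 35723 to 49572 FPKM.

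Between day 1 and day 10, 4662 genes were called higher (25.1% of those tested) and 7422 lower (39.9%), 65.0% in all. Most changes were small: 6112 of the 12084 called genes moved by less than 0.5 on the log2 scale. At least 2-fold, 626 genes rose (3.37%) and 1204 fell (6.48%), 9.85% in all, and at least 4-fold, 77 rose and 254 fell. Without replicate 1 of both days, the libraries high in storage protein RNA, 4302 were called higher and 6542 lower, with 647 and 1210 at least 2-fold. The median change of all tested genes was -0.085. Quantile normalization moved that median to 0.02 and the split to 6320 higher and 5621 lower, with 853 and 953 at least 2-fold. Shifting each library to one median moved it to 0.081 and the split to 7105 higher and 5234 lower, with 954 and 894 at least 2-fold. List medians are therefore given relative to the median of all tested genes. Counts of list members called higher and lower are to be read beside the 25.1% and 39.9% of all tested genes. The libraries of the days did not overlap in 69.7% of the tested genes, so non-overlap alone is common here. FPKM is a share of all RNA in bulk leaf tissue, so fewer cells of a type and less RNA per cell cannot be told apart.

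**Figure D2:**
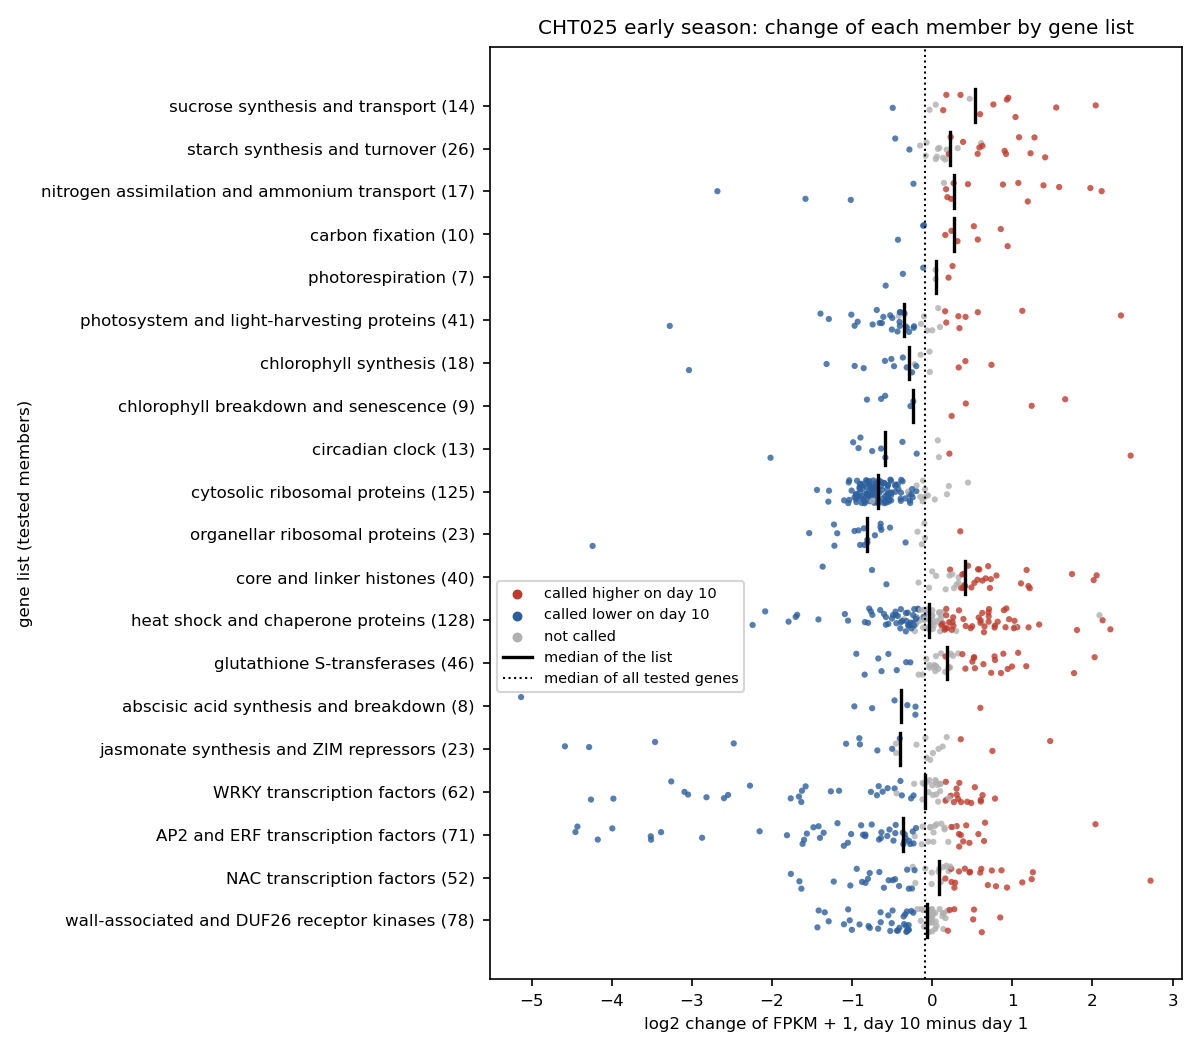
Change from day 1 to day 10 (log2 of FPKM + 1) of every tested member of 20 gene lists; each point is a gene, coloured by its call, the black bar is the median of the list and the dotted line is the median of all tested genes at -0.085. Cytosolic ribosomal protein genes lie almost wholly to the left, histone and sucrose genes mostly to the right, and the WRKY and AP2 lists have long tails of falls, reaching -4.26 and -4.45.

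Genes that make and move sucrose rose. Of 14 tested members of the sucrose list, 10 were called higher, 3 of them at least 2-fold, and 1 lower, and the median lay 0.618 above that of all genes. Sucrose-phosphate synthase 1 (LOC_Os01g69030), which sets the pace of sucrose synthesis in leaves, was at 25.1, 25.2 and 25.4 FPKM on day 1 and 109, 106 and 106 FPKM on day 10. All day 10 libraries were above all day 1 libraries, a rise with a log2 change of 2.04 ± 0.04 (adjusted p = 1.18e-25). The sucrose transporter SUT1 (LOC_Os03g07480) was at 6.92, 7.1 and 6.75 FPKM on day 1 and 21.9, 22 and 22.6 FPKM on day 10, again with no overlap (log2 change 1.55 ± 0.09, adjusted p = 6.69e-16). A further sucrose transporter gene (LOC_Os12g44380) rose from 15.6 ± 0.416 to 31.1 ± 0.189 FPKM, and the cytosolic fructose-1,6-bisphosphatase (LOC_Os01g64660), which feeds sucrose synthesis, from 130.5 ± 4.51 to 249.7 ± 4.87 FPKM. The nodulin MtN3 (SWEET type) sugar exporter gene LOC_Os12g29220 rose from 4.49 ± 0.488 to 10.3 ± 0.296 FPKM. The 1 member that fell was the transporter LOC_Os02g58080, from 13.3 ± 0.563 to 9.15 ± 0.297 FPKM. Sucrose synthase LOC_Os06g09450, which cleaves sucrose, was at 23.9 ± 1.35 and 23.4 ± 1.32 FPKM and was not called.

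Several starch synthesis genes rose as well. Of 26 tested members, 12 were called higher, 4 at least 2-fold, and 2 lower; 12 were not called, and after the median shift 19 were higher and 1 lower. The list median lay 0.303 above that of all genes. Granule-bound starch synthase II (LOC_Os07g22930), the form that makes amylose in leaves, was at 140.0, 133 and 138 FPKM on day 1 and 336, 349.6 and 414 FPKM on day 10. Its lowest day 10 library was above its highest day 1 library (log2 change 1.41 ± 0.07, adjusted p = 1.48e-16). Starch synthase I (LOC_Os06g06560) rose from 51.4 ± 1.82 to 122 ± 2.02 FPKM, the branching enzyme LOC_Os04g33460 from 40.6 ± 3.07 to 99.6 ± 2.44 FPKM and starch synthase 3 (LOC_Os04g53310) from 88.3 ± 1.17 to 188 ± 6.93 FPKM. On the side of starch breakdown, alpha-glucan water dikinase (LOC_Os06g30310), which phosphorylates starch to open it for degradation, fell from 116 ± 2.29 to 84.3 ± 3.17 FPKM. The endosperm form of granule-bound starch synthase (LOC_Os06g04200) was at 3.69, 0.05 and 0.12 FPKM on day 1 and 2.57, 0.46 and 0.54 FPKM on day 10, highest in replicate 1 of each day as the storage proteins were, and was not called. An ADP-glucose pyrophosphorylase gene (LOC_Os07g13980) was at 31.9, 0 and 0 FPKM on day 1 and 0, 27.4 and 0 FPKM on day 10, high in 1 library of each day and listed at 0 in the others, so no change is read from it.

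Most nitrogen genes rose, with some large falls. Of 17 tested members, 12 were called higher, 6 at least 2-fold, and 4 lower, 3 at least 2-fold, with the median 0.352 above that of all genes. Nitrate reductase (LOC_Os08g36480), the first step from nitrate, was at 9.03, 9.2 and 9.97 FPKM on day 1 and 46.6, 43.8 and 41.8 FPKM on day 10. All day 10 libraries lay far above all day 1 libraries (log2 change 2.11 ± 0.05, adjusted p = 5.02e-24). Its neighbour LOC_Os08g36500, a near copy whose reads may be shared with it, rose from 6.8 ± 0.272 to 19.4 ± 1.22 FPKM. The next enzyme, ferredoxin-nitrite reductase (LOC_Os01g25484), moved the other way, at 21.6, 22.6 and 21.2 FPKM on day 1 and 10.9, 9.11 and 10.8 FPKM on day 10. Its day 10 libraries all lay below its day 1 libraries (log2 change -1.02 ± 0.07, adjusted p = 1.58e-13).

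Cytosolic glutamine synthetase 1;1 (LOC_Os02g50240), which assimilates ammonium for export from the leaf, was at 42.2, 46.3 and 46.5 FPKM on day 1 and 178, 185 and 176 FPKM on day 10. All day 10 libraries were higher (log2 change 1.97 ± 0.05, adjusted p = 1.03e-24), while the plastid form (LOC_Os04g56400) rose from 1006 ± 17.3 to 1134 ± 19.6 FPKM. NADH-dependent glutamate synthase 2 (LOC_Os05g48200), which in rice acts in leaves, was at 26.9, 25.2 and 26.5 FPKM on day 1 and 3.02, 3.66 and 3.08 FPKM on day 10. It was low in all 3 libraries of day 10 (log2 change -2.68 ± 0.06, adjusted p = 6.27e-25). The ammonium transporters also moved both ways: AMT1;1 (LOC_Os04g43070) rose from 41.7 ± 0.975 to 127 ± 1.01 FPKM, LOC_Os03g62200 from 1.57 ± 0.45 to 4.83 ± 0.376 FPKM, and LOC_Os05g39240 fell from 18.2 ± 0.831 to 5.44 ± 0.579 FPKM.

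The carbon and nitrogen changes were set beside those of the other season and varieties, which share no library with the 6 used here. A difference was tested with limma treat, which asks whether 2 changes differ by more than 1 on the log2 scale. Sucrose-phosphate synthase 1 (LOC_Os01g69030) changed by 2.04 in CHT025 early, 0.36 in CHT025 middle, 2.34 in WFB early and 2.29 in WFYT025 early, and the season difference passed (adjusted p = 2.83e-10). SUT1 (LOC_Os03g07480) changed by 1.55 in CHT025 and by -0.77 in WFB (adjusted p of the difference = 2.72e-10), with 1.04 in WFYT025. The starch synthases differed by season: LOC_Os07g22930 went by 1.41 in the early and -0.74 in the middle season (adjusted p = 2.61e-10), and LOC_Os06g06560 by 1.23 and -0.75 (adjusted p = 5.24e-14). In all, 7 of the 26 starch genes had a more positive change in the early season and 0 a more negative one, where 2.93% and 4.19% of all tested genes did. Nitrite reductase (LOC_Os01g25484) changed by 1.94 in WFB early, against -1.02 in CHT025 early (adjusted p = 2.63e-16). The fall of glutamate synthase LOC_Os05g48200 was -2.68 in CHT025 and -6.36 in WFB (adjusted p = 3.51e-21), and its change was 0.22 in CHT025 middle (adjusted p = 6.22e-17). The rises of nitrate reductase LOC_Os08g36480 and AMT1;1 LOC_Os04g43070 were smaller in CHT025 than in WFB, where they were 3.83 and 3.92 (adjusted p = 6.71e-09 and 2.81e-17).

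**Figure D3:**
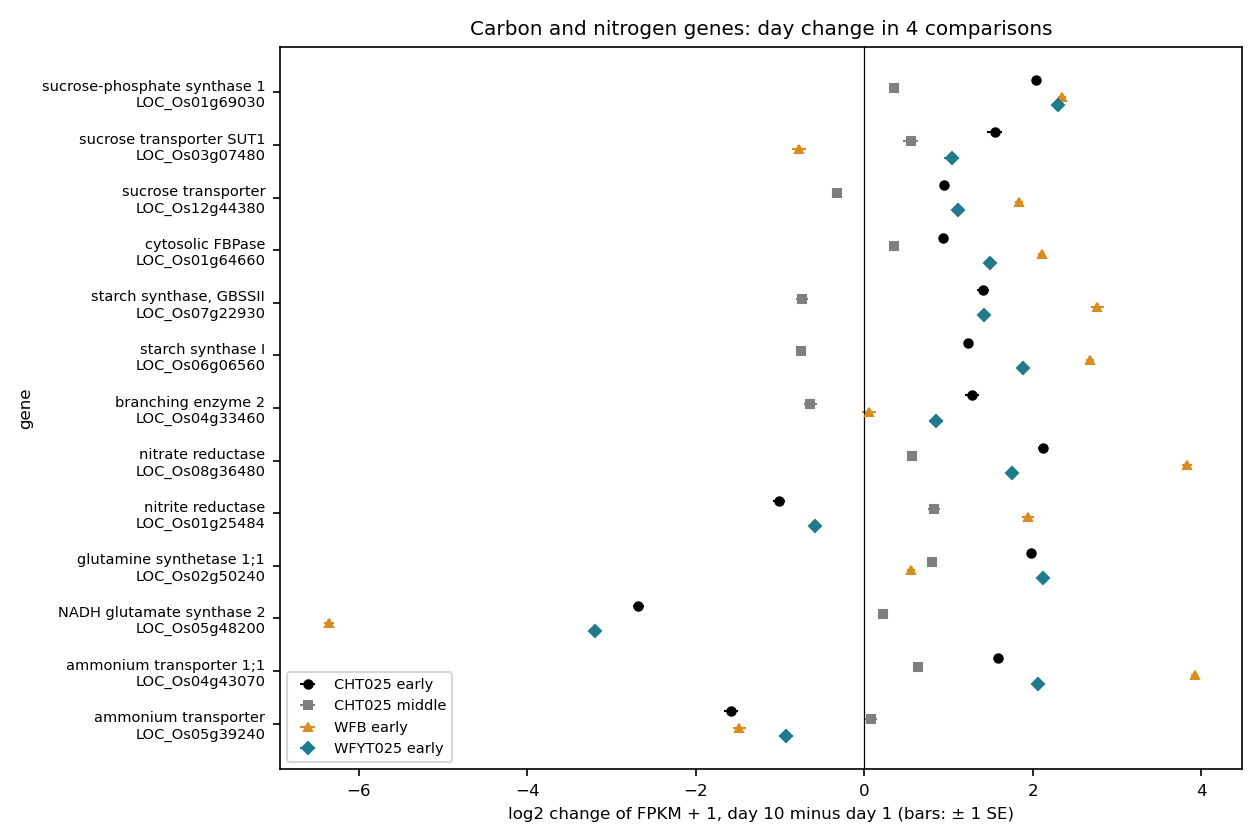
Change from day 1 to day 10 (log2 of FPKM + 1, bars ± 1 SE of the fit) of 13 carbon and nitrogen genes in CHT025 early, CHT025 middle, WFB early and WFYT025 early. In CHT025 early, nitrate reductase lies at 2.11 and nitrite reductase at -1.02, and glutamate synthase 2 reaches -6.36 in WFB early.

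Carbon fixation genes and light-harvesting genes moved apart. Rubisco activase (LOC_Os11g47970), which keeps Rubisco active, was the most abundant transcript on both days, at 12628, 12556 and 13246 FPKM on day 1 and 25252, 24369.5 and 24155 FPKM on day 10. All day 10 libraries were above all day 1 libraries (log2 change 0.94 ± 0.04, adjusted p = 5.56e-18), from 2.30% to 4.56% of the FPKM sum. Quantile normalization holds the top rank at one value, so its change is 0 there. Fructose-bisphosphate aldolase (LOC_Os11g07020) rose from 4125 ± 55.4 to 8932 ± 306 FPKM and became the second most abundant. The carbon fixation list does not hold this aldolase gene. Of its 10 tested members 7 were called higher and 3 lower, 0 at least 2-fold, and after the median shift 7 higher and 1 lower. Of 7 photorespiration genes 2 were called higher and 3 lower (3 and 2 after the median shift). Both abundant Rubisco small subunit genes changed little: LOC_Os12g17600, whose days overlapped, was at 8230.4 ± 236 and 7612 ± 433 FPKM and LOC_Os12g19381 at 8165 ± 131 and 7603 ± 22.6 FPKM, both called lower but with changes of 0.0521 and 0.0631 after the median shift. These small subunit genes are near copies, so their reads may be split between them.

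Of 41 tested photosystem and light-harvesting genes, 8 were called higher and 25 lower, 2 and 4 of them at least 2-fold, with the median 0.267 below that of all genes. The chlorophyll a/b-binding protein gene LOC_Os08g33820 was at 4083, 4443 and 4455 FPKM on day 1 and 1816, 1729.9 and 1758 FPKM on day 10. It was lower in all 3 libraries of day 10 (log2 change -1.29 ± 0.05, adjusted p = 3.16e-20). LOC_Os09g26810, of the same family, fell from 53.6 ± 1.73 to 4.66 ± 0.611 FPKM, and LOC_Os07g37240 from 6344 ± 228 to 3329 ± 177 FPKM. Against the family, LOC_Os04g59440 rose from 8.1 ± 0.885 to 45.5 ± 2.23 FPKM. The photosystem II assembly factor PSB28 (LOC_Os01g71190) rose from 119.6 ± 6.11 to 262 ± 8.48 FPKM.

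Chlorophyll synthesis followed the light-harvesting genes, with 3 of 18 members called higher and 11 lower (5 and 9 after the median shift). Protochlorophyllide reductase A (LOC_Os04g58200), the light-dependent reductase of young greening tissue, was at 263, 276 and 310.2 FPKM on day 1 and 39.9, 31.8 and 29.8 FPKM on day 10. All day 10 libraries were far below all day 1 libraries (log2 change -3.04 ± 0.11, adjusted p = 1.12e-20), and the second reductase gene (LOC_Os10g35370) fell from 349 ± 4.73 to 192 ± 6.17 FPKM. Coproporphyrinogen III oxidase (LOC_Os04g52130), an earlier step, fell from 92.6 ± 2.28 to 36.5 ± 0.814 FPKM. Of 9 genes of chlorophyll breakdown and leaf senescence, 4 were called higher and 5 lower. The stay-green gene SGR (LOC_Os09g36200), which removes magnesium from chlorophyll, was at 1.78, 2.0 and 2.22 FPKM on day 1 and 8.58, 8.25 and 8.55 FPKM on day 10, higher in all day 10 libraries (log2 change 1.66 ± 0.08, adjusted p = 6.70e-17). The NAC gene LOC_Os03g21060 rose from 3.47 ± 0.41 to 9.55 ± 0.658 FPKM and pheophorbide a oxygenase (LOC_Os03g05310), which opens the chlorophyll ring, from 43.4 ± 0.0802 to 58.4 ± 1.57 FPKM. The chlorophyll b reductases LOC_Os01g12710 and LOC_Os03g45194, which start chlorophyll b breakdown, fell from 65.2 ± 1.67 to 41.6 ± 0.846 FPKM and from 11.4 ± 0.667 to 6.02 ± 0.27 FPKM.

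Clock genes moved in opposite directions. Of 13 tested members 2 were called higher and 9 lower (4 and 9 after quantile normalization, 4 and 8 after the median shift), with the median 0.5 below that of all genes. The morning gene LHY (LOC_Os08g06110, a MYB factor) was at 126, 119.8 and 123 FPKM on day 1 and 648, 679 and 738 FPKM on day 10. All libraries of day 10 lay far above those of day 1 (log2 change 2.48 ± 0.04, adjusted p = 1.02e-27). Day and evening members were lower: GIGANTEA (LOC_Os01g08700) fell from 381 ± 8.12 to 201 ± 8.84 FPKM, the pseudo-response regulator LOC_Os07g49460 from 294 ± 6.31 to 189 ± 5.72 FPKM and LOC_Os11g05930 from 31.4 ± 0.601 to 15.4 ± 1.1 FPKM. The F-box gene LOC_Os11g34460, an FKF1-type blue-light receptor, was at 4.0, 4.2 and 4.15 FPKM on day 1 and 0.26, 0.27 and 0.26 FPKM on day 10, near 0 on day 10 (log2 change -2.02 ± 0.07, adjusted p = 7.16e-21). In CHT025 middle LHY changed by 0.04, a season difference that passed (adjusted p = 1.06e-17), while it changed by 3.97 in WFB early and 3.28 in WFYT025 early. Hd3a (LOC_Os06g06320), a gene of the mobile flowering signal, rose from 18.4 ± 0.637 to 33.1 ± 0.741 FPKM.

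Ribosomal protein genes fell almost as one block. Of 125 tested cytosolic members, 0 were called higher and 112 lower, 9 of them at least 2-fold, against 39.9% of all tested genes called lower. The list median lay 0.597 below that of all genes, and after quantile normalization 1 was higher and 103 were lower. The largest fall was that of 60S protein L29 (LOC_Os05g28750), at 105, 109 and 106 FPKM on day 1 and 35.5, 40.7 and 40.3 FPKM on day 10, with all day 10 libraries well below day 1 (log2 change -1.44 ± 0.10, adjusted p = 5.92e-14). Of 23 tested organellar ribosomal protein genes 18 fell and 1 rose. The plastid-specific 30S protein gene LOC_Os03g63950 was at 182, 189.8 and 195 FPKM on day 1 and 10.2, 8.56 and 8.45 FPKM on day 10, low in all 3 libraries of day 10 (log2 change -4.24 ± 0.21, adjusted p = 2.98e-17), and the 1 that rose was 50S protein L31 (LOC_Os01g44210), from 383 ± 13.3 to 488 ± 23.9 FPKM.

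Histone genes rose. Of 40 tested core and linker histone genes 26 were called higher, 7 at least 2-fold, and 3 lower, with the median 0.492 above that of all genes. Linker histone H1 (LOC_Os04g18090) was at 801, 851 and 858 FPKM on day 1 and 2039, 1912 and 1827 FPKM on day 10, and a second H1 gene (LOC_Os06g04020) rose from 189 ± 3.14 to 638 ± 44.8 FPKM. Both were higher in every day 10 library. The core histone gene LOC_Os03g17100 was at 5.48, 7.36 and 5.83 FPKM on day 1 and 31.9, 25.9 and 28.8 FPKM on day 10, high on day 10 in all 3 (log2 change 2.05 ± 0.10, adjusted p = 8.31e-17). Histone genes are many near copies, and reads may be split among them. Of 30 cell division genes 9 were called higher and 10 lower, where 25.1% and 39.9% of all tested genes were. In WFYT025 early several histone genes went the other way: LOC_Os04g18090 changed by -1.46, LOC_Os03g17100 by -1.19, LOC_Os09g38020 by -1.77 and LOC_Os10g39410 by -2.49, against 1.20, 2.05, 1.18 and 0.59 in CHT025 early (adjusted p of the differences 5.43e-14, 2.46e-13, 2.90e-13 and 1.26e-13). In WFB early they rose as in CHT025, with LOC_Os04g18090 going from 702 to 2025 FPKM and LOC_Os03g17100 from 9.94 to 30.6 FPKM. Of the 40 histone genes, 0 differed from WFB in their change, where 7.17% of all tested genes did. Against WFYT025, 19 of the 40 histone genes had a more positive change in CHT025, where 0.221% of all tested genes did. The AT-hook DNA-binding protein gene LOC_Os07g08710 also differed, at 1.83 in CHT025 and -1.01 in WFYT025 (adjusted p = 9.58e-15).

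Of the 15 largest falls, 8 were those of transcriptional regulators of the ZIM, WRKY, AP2, bHLH and VQ families. Of 23 tested jasmonate genes 10 fell, near the 39.9% of all tested genes called lower, 5 at least 2-fold, and 3 rose (after the median shift 10 and 5). The ZIM-domain gene LOC_Os03g08330, of the JAZ repressors that jasmonate itself induces, was at 59.1, 61.6 and 57.4 FPKM on day 1 and 1.55, 1.63 and 1.38 FPKM on day 10. All day 1 libraries were high and all day 10 libraries low (log2 change -4.58 ± 0.16, adjusted p = 7.61e-21). A second ZIM-domain gene (LOC_Os10g25230) went from 21 ± 1.64 to 0.133 ± 0.085 FPKM and another (LOC_Os10g25290) from 18.6 ± 1.53 to 0.79 ± 0.191 FPKM. The 12-oxophytodienoate reductase gene LOC_Os06g11290, a step of jasmonate synthesis, rose from 0.783 ± 0.176 to 3.94 ± 0.372 FPKM.

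WRKY factors, regulators of defence and senescence, had 26 of 62 tested members called lower, near the share of all tested genes, 16 at least 2-fold, where 6.48% of all tested genes fell so far, and 16 higher, 0 at least 2-fold (22 lower and 25 higher after the median shift). WRKY71 (LOC_Os02g08440) was at 103, 118 and 115 FPKM on day 1 and 5.14, 5.33 and 4.26 FPKM on day 10, with no overlap (log2 change -4.26 ± 0.11, adjusted p = 5.23e-24). WRKY24 (LOC_Os01g61080) fell from 92.3 ± 6.52 to 4.93 ± 0.664 FPKM and WRKY53 (LOC_Os05g27730) from 215 ± 7.35 to 21.6 ± 1.31 FPKM. The largest WRKY rise was that of WRKY46 (LOC_Os11g02480), from 3.74 ± 0.252 to 7.15 ± 0.212 FPKM.

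Of 71 tested AP2 and ERF factors, which carry ethylene, cold and drought responses, 44 fell, 21 at least 2-fold, and 12 rose, 1 at least 2-fold (36 and 18 after the median shift). A DREB gene (LOC_Os02g45450), of the family that binds the cold and drought response element, was at 26.4, 32.7 and 29.9 FPKM on day 1 and 0.47, 0.24 and 0.49 FPKM on day 10, high on day 1 and near 0 in all libraries of day 10 (log2 change -4.45 ± 0.12, adjusted p = 2.21e-23). The AP2 genes LOC_Os10g41330 and LOC_Os08g36920 fell from 55.6 ± 3.7 to 1.63 ± 0.15 FPKM and from 21.7 ± 1.66 to 0.267 ± 0.194 FPKM. The 1 AP2 gene that rose at least 2-fold was LOC_Os01g54890, from 1.7 ± 0.793 to 9.78 ± 0.324 FPKM. The other regulators among the 15 largest falls were of several kinds. The bHLH genes LOC_Os04g23550 and LOC_Os01g56690 fell from 34 ± 5.38 to 0.11 ± 0.010 FPKM and from 22.7 ± 2.03 to 0.15 ± 0.0819 FPKM, and the VQ-domain gene LOC_Os02g15290, of the family that binds WRKY factors, from 40.5 ± 1.1 to 0.36 ± 0.101 FPKM. A CAF1 ribonuclease gene (LOC_Os04g58810), whose family shortens the tails of mRNAs, fell from 34.6 ± 2.03 to 0.713 ± 0.0493 FPKM.

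Of 8 tested abscisic acid genes 7 fell and 1 rose, where 39.9% and 25.1% of all tested genes did. After quantile normalization and after the median shift 5 fell and 1 rose. The P450 gene LOC_Os02g47470, an abscisic acid 8′-hydroxylase that breaks the hormone down, was at 68.4, 77.8 and 77.9 FPKM on day 1 and 1.44, 0.82 and 1.26 FPKM on day 10. All 3 libraries of day 10 were near 1 FPKM (log2 change -5.13 ± 0.12, adjusted p = 5.10e-25). Another hydroxylase gene (LOC_Os09g28390) was the 1 that rose, from 12.3 ± 0.191 to 19.2 ± 0.229 FPKM. The abundant gene LOC_Os02g47510, described as a 9-cis-epoxycarotenoid dioxygenase, fell from 1222 ± 29.1 to 883 ± 55.5 FPKM. Its part in abscisic acid synthesis was not tested. Of 36 tested pathogenesis-related genes 9 fell and 4 rose (8 and 7 after the median shift), where 39.9% and 25.1% of all tested genes did. At least 2-fold, 5 of them fell, where 6.48% of all tested genes did, and the list median lay 0.076 above that of all genes. Among defence genes with large falls, chitinase CHIT1 (LOC_Os02g39330) went from 87 ± 7.98 to 5.96 ± 0.543 FPKM and osmotin (LOC_Os12g38170) from 68.7 ± 2.03 to 9.39 ± 2.17 FPKM. Of 78 tested wall-associated and DUF26 receptor kinases, 33 fell, near the 39.9% of all tested genes, and 7 rose (22 and 20 after the median shift), with the median 0.024 above that of all genes. Of 52 tested NAC factors 20 were called higher and 20 lower (26 and 16 after the median shift), where 25.1% and 39.9% of all tested genes were. The list median lay 0.168 above that of all genes. NAC67 (LOC_Os03g60080) fell from 241 ± 3.1 to 75.9 ± 4.38 FPKM.

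**Figure D4:**
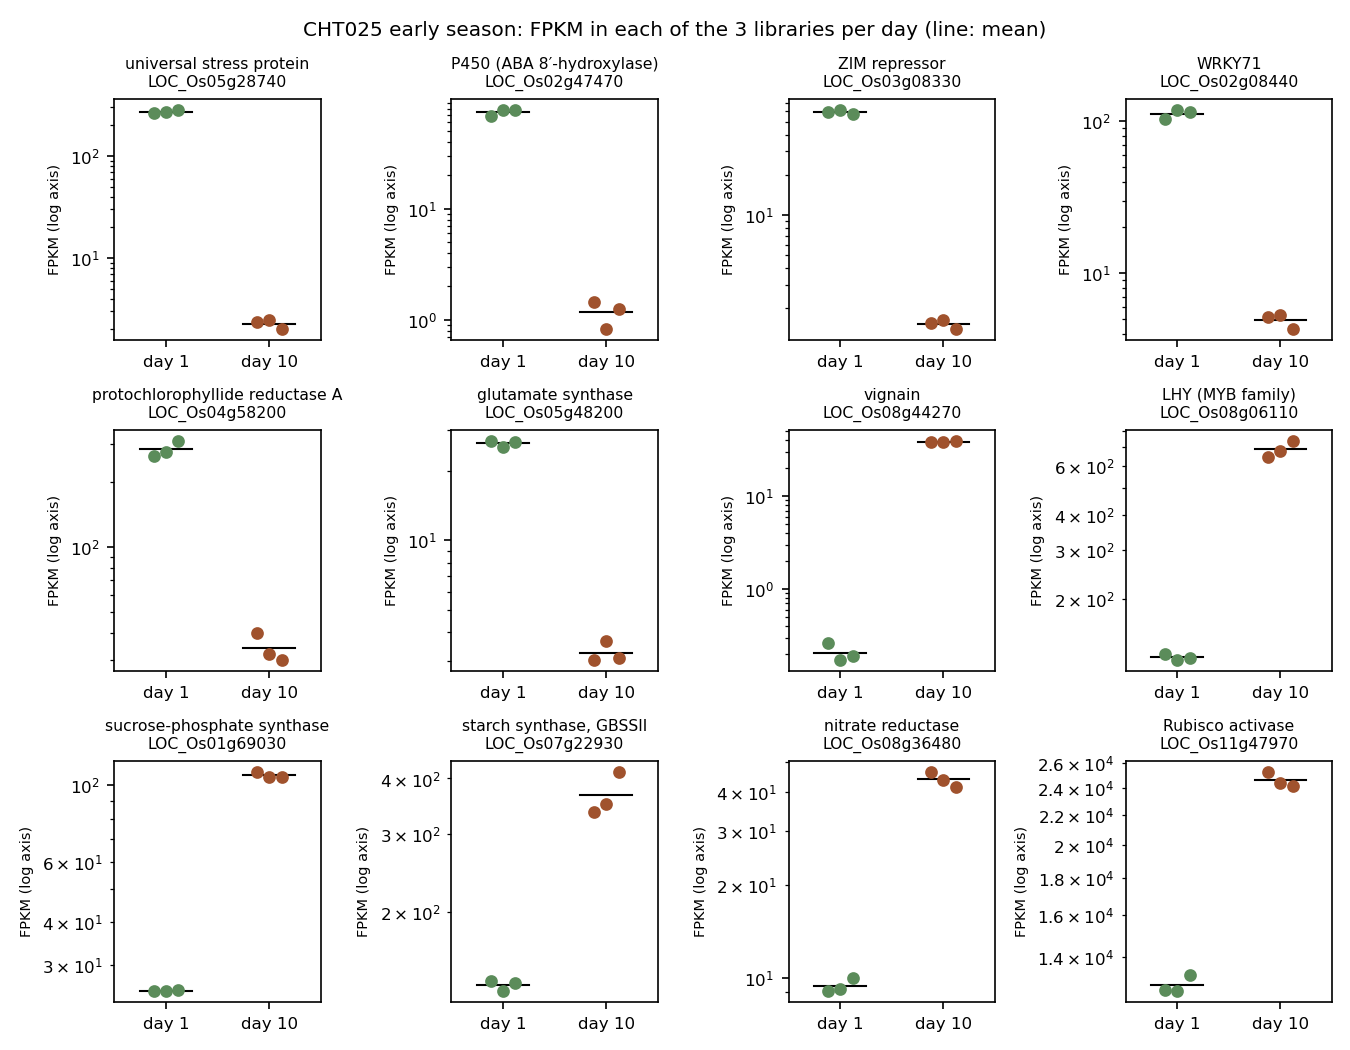
FPKM (log axis, own range in each panel) of 12 genes in each of the 3 libraries of day 1 and of day 10; each point is 1 library and the line is the mean of the day. The days do not overlap in any of the 12 panels: the first 6 genes are high on day 1 and the last 6 on day 10.

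Several of the same regulators rose over these days in the other early-season crops. The ZIM gene LOC_Os03g08330 changed by -4.58 in CHT025, 3.89 in WFB and 3.05 in WFYT025, and by 0.72 in CHT025 middle (adjusted p of the differences 3.77e-22, 3.09e-20 and 9.35e-16). WRKY71 (LOC_Os02g08440) changed by 2.04 in WFB, 2.04 in WFYT025 and 0.15 in CHT025 middle, against -4.26 in CHT025 early (adjusted p of the differences 1.65e-22, 9.76e-22 and 3.61e-17). The hydroxylase LOC_Os02g47470 changed by 1.78, 2.27 and -0.19 in the same order, against -5.13 (adjusted p 7.99e-23, 9.18e-23 and 1.04e-17). Of 62 WRKY genes, 18 had a more negative change in CHT025 than in WFB and 18 than in WFYT025, and of 71 AP2 and ERF genes 19 and 14 did, where 4.18% and 2.62% of all tested genes did. The 1204 genes that fell at least 2-fold in CHT025 early were called higher in WFB for 284 (all tested genes: 25.0%) and in WFYT025 for 271 (all tested genes: 33.0%), and 220 were called higher in both. These 220 are 18.3% of the 1204, near the 16.7% of all tested genes called higher in both, while 726 (60.3%) were called lower in both, where 25.7% of all tested genes were. Of the genes that fell at least 2-fold, the 220 included 10 of 16 WRKY, 10 of 21 AP2 and ERF and 5 of 7 bHLH genes. They also held 4 of 5 NAC, 4 of 5 ZIM or jasmonate, 4 of 7 calcium sensor and 6 of 20 cytochrome P450 genes. Lower parts were those of heat shock and chaperone genes, with 1 of 8, and major facilitator transporters, with 1 of 7. Described only as expressed protein were 48 of the 220. The 220 were picked by these changes, so the counts are a description. Of the 626 genes that rose at least 2-fold, 456 (72.8%) were called higher and 1 lower in both of the other varieties.

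Levels in all 12 groups place the day 1 values of CHT025. The median level of the 220 genes, as log2(FPKM + 1), was 4.15 on day 1 and 1.68 on day 10 in CHT025 early. It was 2.26 and 2.64 in CHT025 middle, 2.04 and 3.61 in WFB early, 4.75 and 2.93 in WFB middle, 1.0 and 2.25 in WFYT025 early and 1.80 and 4.96 in WFYT025 middle. The highest medians were those of CHT025 early on day 1, WFB middle on day 1 and WFYT025 middle on day 10. The fall in CHT025 early and the rises in WFB and WFYT025 early follow from how the 220 were picked. Middle-season levels were not used in that pick. The 726 genes called lower in both stood at 4.21 in CHT025 early on day 1. They were at 2.66 in WFB middle on day 1 and 2.87 in WFYT025 middle on day 10. WRKY71 (LOC_Os02g08440) was at 112 ± 8.27 FPKM in CHT025 early on day 1, 239 ± 27 in WFB middle on day 1 and 107 ± 4.06 in WFYT025 middle on day 10, and between 2.41 and 37.7 FPKM on average in the other 9 groups. The bHLH gene LOC_Os04g23550 was at 327 ± 41 FPKM in WFB middle on day 1, above its 34 ± 5.38 FPKM in CHT025 early on day 1. For WRKY71, all 3 libraries of each of these 3 groups lay above every library of the other 9 groups.

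**Figure D5:**
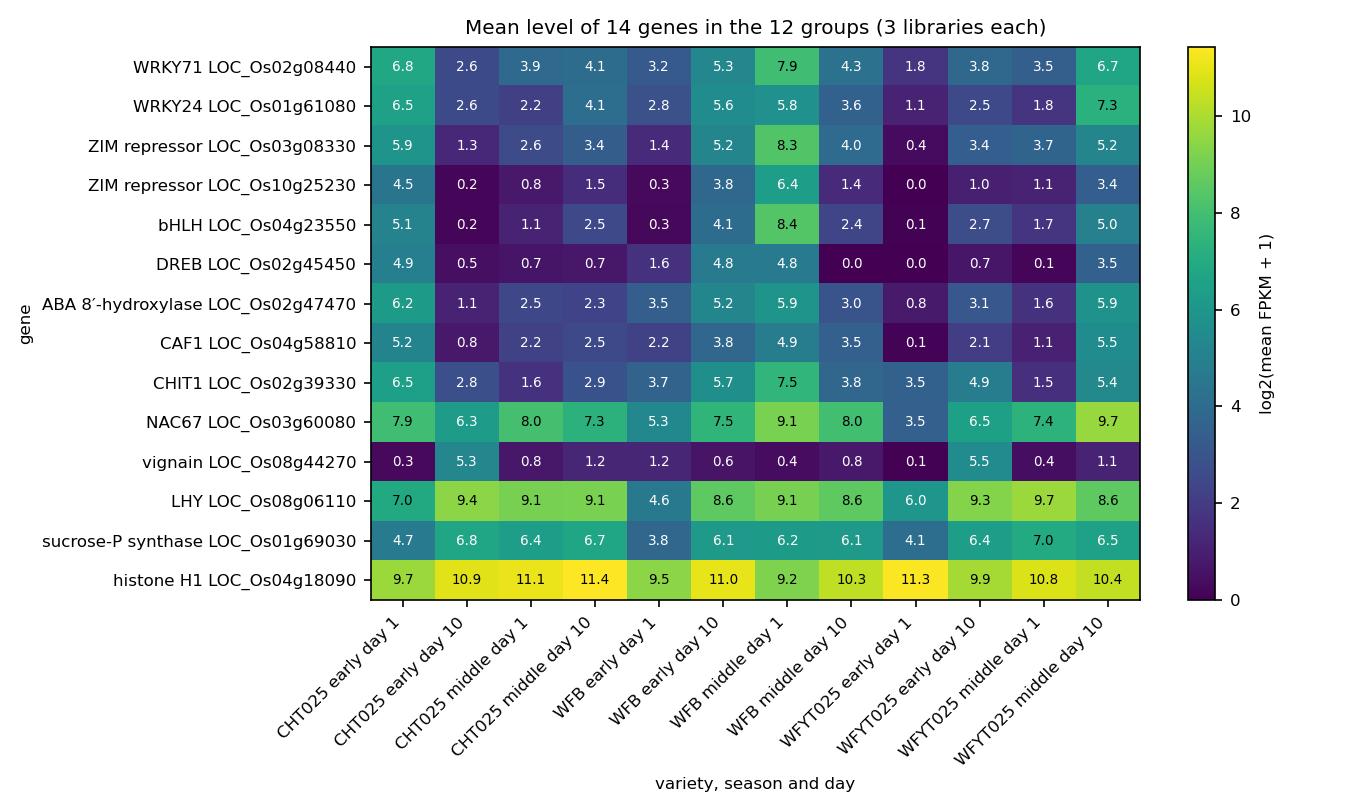
Level, as log2 of mean FPKM + 1, of 14 genes in the 12 groups of the series, with the value written in each cell; rows are genes and columns are groups of 3 libraries. The first 9 rows are high in CHT025 early day 1, WFB middle day 1 and WFYT025 middle day 10 and also raised in WFB early day 10, while vignain is above 10 FPKM in no group but CHT025 early and WFYT025 early on day 10.

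Other large falls were those of stress, vitamin and redox genes. A universal stress protein gene (LOC_Os05g28740) was at 266, 269 and 284 FPKM on day 1 and 2.39, 2.46 and 2.0 FPKM on day 10, low in all libraries of day 10 (log2 change -6.39 ± 0.17, adjusted p = 1.87e-23). It changed by -5.64 in WFB and -3.96 in WFYT025, and by -0.97 in CHT025 middle (adjusted p of the season difference = 3.95e-15). The thiamine thiazole synthase gene LOC_Os07g34570, described as an FAD-dependent oxidoreductase, was at 734, 814 and 787 FPKM on day 1 and 23.6, 23.4 and 20.7 FPKM on day 10, and the light-induced protein gene LOC_Os01g01340 fell from 1251 ± 37.6 to 64 ± 1.44 FPKM. An auxin-repressed protein gene (LOC_Os11g44810) fell from 215 ± 10.9 to 12.4 ± 0.146 FPKM. Catalase A (LOC_Os02g02400), which removes hydrogen peroxide, was at 80.5, 91.6 and 58.1 FPKM on day 1 and 11.2, 11 and 10.8 FPKM on day 10, lower in replicate 3 than in the others on day 1 but above day 10 in all. The transporter gene LOC_Os07g37320 fell from 432 ± 8.17 to 39 ± 2.26 FPKM. Of 50 tested calcium sensors 17 rose and 19 fell (21 and 12 after the median shift), where 25.1% and 39.9% of all tested genes did. At least 2-fold, 2 of them rose and 7 fell, where 3.37% and 6.48% of all tested genes did. Among calcium sensors with large falls, the EF-hand gene LOC_Os03g29770 went from 29.8 ± 2.04 to 1.75 ± 0.436 FPKM and CML1 (LOC_Os01g59530) from 157 ± 3.67 to 22.3 ± 0.351 FPKM. LOC_Os12g37415, an expressed protein, was at 95.9, 93.4 and 88.1 FPKM on day 1 and 0.19, 0.22 and 0.21 FPKM on day 10, but its standard error was 1.06. In WFYT025 early on day 1 its libraries were at 105, 0.30 and 92.3 FPKM and in WFB middle on day 1 at 0.27, 67.5 and 0.28 FPKM, so libraries of 1 group differed as much as the days did.

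The 15 largest rises and falls named here have a mean of at least 10 FPKM on the higher day and no library at 0. The largest rise was that of a vignain gene (LOC_Os08g44270), a cysteine protease of a type known from germinating seeds and senescing tissue. It was at 0.26, 0.17 and 0.19 FPKM on day 1 and 37.9, 37.9 and 39.4 FPKM on day 10, near 0 in all day 1 libraries (log2 change 5.03 ± 0.11, adjusted p = 1.69e-25). It changed by 5.47 in WFYT025 early, by -0.61 in WFB early (adjusted p of the difference = 5.88e-21) and by 0.50 in CHT025 middle. The gene described as carotenoid synthesis regulator CarF (LOC_Os08g08850) rose from 2.64 ± 0.14 to 60.8 ± 3.12 FPKM, the expressed protein gene LOC_Os01g60830 from 75.6 ± 3.27 to 918 ± 33 FPKM and an aldo/keto reductase gene (LOC_Os01g62870) from 2.1 ± 0.24 to 27.8 ± 1.26 FPKM. UOS1 (LOC_Os02g04510) was at 50.6, 50 and 49.7 FPKM on day 1 and 424, 432 and 445 FPKM on day 10, with no overlap (log2 change 3.09 ± 0.03, adjusted p = 4.53e-33), and changed by 0.03 in CHT025 middle (adjusted p of the difference = 5.04e-24). The vitamin B6 synthesis gene LOC_Os10g01080 (SOR/SNZ family) rose from 36.9 ± 3.76 to 277 ± 18.8 FPKM, and a SOUL heme-binding protein gene (LOC_Os01g63210) from 7.2 ± 0.673 to 50.7 ± 1.46 FPKM. The remaining 8 of the 15 largest rises were a methyltransferase (LOC_Os07g08200), an expressed protein (LOC_Os02g15860), a cytidine deaminase (LOC_Os01g51540), a bZIP factor (LOC_Os02g10860), a dehydration-responsive protein (LOC_Os12g43720), a dehydrin (LOC_Os02g44870), a sugar-type transporter (LOC_Os12g32760) and a retrotransposon protein (LOC_Os01g12810), with changes from 2.54 to 2.99. The bZIP factor LOC_Os02g10860 was at 45.6, 90.4 and 91 FPKM on day 10, with replicate 1 below the others.

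A few low genes appeared or disappeared. Listed at 0 in all 3 libraries of day 1 and at 1 FPKM or more in all 3 of day 10 were 5 genes, led by the expressed protein gene LOC_Os06g05960 at 6.26, 4.76 and 4.73 FPKM and the peptide hormone gene RALFL28 (LOC_Os06g29730) at 2.97, 3.15 and 2.93 FPKM on day 10. In the reverse direction there were 8 genes, led by a hydrolase gene (LOC_Os03g27110) at 5.23, 4.12 and 4.35 FPKM and a glycosyl hydrolase family 16 gene (LOC_Os04g51460), of enzymes that remodel the cell wall, at 2.12, 2.72 and 2.19 FPKM on day 1. No fold is given for these. A chaperonin gene (LOC_Os06g09688) was above 0 in a single library, replicate 3 of day 10, at 75.7 FPKM, and was not called.

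Protein-folding and stress genes differed between the seasons. Of 128 tested heat shock and chaperone genes 42 rose and 47 fell (59 and 29 after the median shift), where 25.1% and 39.9% of all tested genes did. A more positive change in the early than in the middle season was called for 28 and a more negative one for 4, where 2.93% and 4.19% of all tested genes had one. The DnaK (Hsp70) gene LOC_Os01g62290 was at 20.8, 21.4 and 21.7 FPKM on day 1 and 102, 94.8 and 92 FPKM on day 10, higher in all libraries of day 10 (log2 change 2.13 ± 0.06, adjusted p = 2.84e-23), and changed by -1.77 in the middle season (adjusted p of the difference = 7.08e-22). The small heat shock genes LOC_Os02g54140 and LOC_Os03g16020 changed by 2.22 and 1.03 in the early and -2.98 and -3.84 in the middle season (adjusted p of the differences 6.88e-19 and 1.02e-12). In the early season they were low, at 0.783 and 1.57 FPKM on day 1 and 7.34 and 4.33 FPKM on day 10. In the middle season they were at 145.5 and 140.7 FPKM on day 1 and 17.7 and 8.88 FPKM on day 10. Chalcone synthase LOC_Os11g32650, the entry to flavonoid synthesis, changed by 1.26 and -4.80 (adjusted p = 1.23e-20). Its levels on day 1 and day 10 were 0.737 and 3.13 FPKM in the early and 128.8 and 3.75 FPKM in the middle season. The dehydrin LOC_Os02g44870, a drought protein, changed by 2.68 and -1.41 (adjusted p = 6.22e-17). The early light-induced protein gene LOC_Os07g08160, which protects chloroplasts from excess light, rose from 232 ± 8.71 to 753 ± 21 FPKM, a change of 1.69 against 6.74 in WFB and 3.93 in WFYT025 (adjusted p = 1.05e-20 and 3.62e-08). Ferritin (LOC_Os12g01530), the iron store of the chloroplast, rose from 28.6 ± 0.31 to 71.2 ± 4.4 FPKM in CHT025 early and stood at 1736 ± 42.3 and 1812 ± 84.6 FPKM on these days in CHT025 middle. Its change was 4.73 in WFB early (adjusted p of the difference = 7.91e-23). Of 46 glutathione S-transferase genes 20 rose and 8 fell (27 and 6 after the median shift), and LOC_Os10g38610 rose from 8.48 ± 0.355 to 37.6 ± 0.635 FPKM.

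Across all genes the change in CHT025 early was most like that in WFYT025 early, by Pearson's r of 0.614 over 18585 genes, followed by WFB early with 0.396 and CHT025 middle with 0.048. These correlations are across genes, which are not independent replicates, and are given as a description. Of the 626 genes up at least 2-fold in CHT025 early, 595 were called higher in WFYT025, 471 in WFB and 234 in CHT025 middle, where 33.0%, 25.0% and 23.1% of all tested genes were. Of the 1204 down at least 2-fold, 803 were called lower in WFYT025, 802 in WFB and 385 in CHT025 middle, where 35.0%, 46.1% and 20.5% were. Differences of more than 1 on the log2 scale were called for 528 genes against WFYT025 (2.84%), 1332 against WFB (7.17%) and 1324 against the middle season (7.12%), and 487 of the 528 against WFYT025 were more negative in CHT025.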

How the data were processed

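Flag leaf RNA was sequenced in 36 libraries, read pairs from mRNA libraries of total RNA, per the labels' protocols. The authors deposited FPKM per gene and library, per the file headers, in tables that also hold their fold changes, p-values and q-values, which were not used. The submitters' processing notes list HISAT, StringTie and edgeR. Tool versions and the reference build and gene models used were not given in the sources used here. FPKM tables carry no counts, so depth is unknown, no counting interval is given, and low FPKM values are the least precise. In the deposited tables, 1 broken line and repeated lines were dropped.

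Values were taken as log2(FPKM + 1), a scale that understates changes of low genes. Genes reaching 1 FPKM in 3 or more of 36 libraries were fitted with limma 3.58.1 (R 4.3.3) with 12 group means, so all groups share 1 estimate of the spread, with an intensity trend and two-sided tests. P-values were adjusted by Benjamini-Hochberg over all tested genes and called under 0.05. Differences between changes were tested with limma treat against 1 on the log2 scale. The procedure was tested on simulated data. Tables and figures used Python 3.11.15, pandas 2.3.3, numpy 2.4.6 and matplotlib 3.10.9. Alternatives were other pseudocounts, filters, scalings, sample sets and replicates left out, and leaving out replicate 1 of both days was chosen after seeing the data. Named genes are the 15 largest rises and falls with no overlap between days, a mean of at least 10 FPKM and no library at 0, up to 5 each way that are listed at 0 on 1 day, the members of the gene lists with the largest changes, the largest differences between groups, and the most abundant genes. Members and lists were chosen with earlier results of these data known. No sequences are printed.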

Additional observations from a re-analysis of the deposited data

Results flagged for a closer look

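The day 10 minus day 1 change of several genes in CHT025 early differed from that in another group by more than 1 on the log2 scale, by limma treat with Benjamini-Hochberg adjustment over all tested genes. Each difference below is the change in CHT025 early minus the change in the other group, on the log2 scale with its SE, and no explanation is given for it.

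Against CHT025 middle, the most negative differences were those of the bHLH gene LOC_Os04g23550 at -6.32 ± 0.36, LOC_Os12g37415 at -6.25 ± 1.495, the VQ gene LOC_Os02g15290 at -6.02 ± 0.22, WRKY24 (LOC_Os01g61080) at -5.93 ± 0.19 and the universal stress protein gene LOC_Os05g28740 at -5.41 ± 0.24. Their adjusted p ran from 6.88e-19 for WRKY24 to 0.0122 for LOC_Os12g37415. The ZIM gene LOC_Os03g08330 differed by -5.31 ± 0.23, the abscisic acid hydroxylase LOC_Os02g47470 by -4.94 ± 0.17, WRKY71 (LOC_Os02g08440) by -4.41 ± 0.15 and glutamate synthase LOC_Os05g48200 by -2.90 ± 0.09. The most positive were chalcone synthase LOC_Os11g32650 at 6.06 ± 0.16, the small heat shock genes LOC_Os02g54140 and LOC_Os03g16020 at 5.20 ± 0.16 and 4.87 ± 0.27, LOC_Os06g39240 (described as an endothelial differentiation-related factor) at 4.83 ± 0.21 and the nodulin gene LOC_Os09g25810 at 4.69 ± 0.22. LOC_Os06g39240 changed by 1.96 in the early and -2.87 in the middle season, and LOC_Os09g25810 by 2.34 and -2.35. Further positive differences were those of the dehydrin LOC_Os02g44870 at 4.09 ± 0.14, the DnaK gene LOC_Os01g62290 at 3.90 ± 0.08, UOS1 (LOC_Os02g04510) at 3.06 ± 0.05, LHY (LOC_Os08g06110) at 2.43 ± 0.06, the starch synthases LOC_Os07g22930 and LOC_Os06g06560 at 2.15 ± 0.10 and 1.98 ± 0.06, and sucrose-phosphate synthase LOC_Os01g69030 at 1.68 ± 0.06.

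Against WFB early, the expressed protein gene LOC_Os12g37415 differed by -12.52 ± 1.495 (adjusted p = 2.98e-07) and LOC_Os05g03865 by -8.81 ± 1.62 (adjusted p = 4.65e-04). LOC_Os05g03865 was at 0.22, 104 and 0.18 FPKM on day 1 and 0.24, 0.22 and 0.25 FPKM on day 10, so its change in CHT025 rests on 1 library of day 1. The bHLH gene LOC_Os04g23550 differed by -8.76 ± 0.36, the AP2 gene LOC_Os08g36920 by -8.55 ± 0.29, the ZIM gene LOC_Os03g08330 by -8.47 ± 0.23, the hydroxylase LOC_Os02g47470 by -6.91 ± 0.17, WRKY24 (LOC_Os01g61080) by -6.74 ± 0.19, WRKY71 (LOC_Os02g08440) by -6.29 ± 0.15 and NAC67 (LOC_Os03g60080) by -3.81 ± 0.11. The early light-induced protein gene LOC_Os07g08160 differed by -5.05 ± 0.14, ferritin LOC_Os12g01530 by -3.44 ± 0.07, nitrite reductase LOC_Os01g25484 by -2.95 ± 0.10, AMT1;1 (LOC_Os04g43070) by -2.33 ± 0.06 and nitrate reductase LOC_Os08g36480 by -1.71 ± 0.08. On the positive side stood an acyl-CoA dehydrogenase gene (LOC_Os06g23870) at 6.12 ± 0.07 (adjusted p = 9.68e-31), the vignain gene LOC_Os08g44270 at 5.64 ± 0.16, glutamate synthase LOC_Os05g48200 at 3.67 ± 0.09 and SUT1 (LOC_Os03g07480) at 2.32 ± 0.12. The expressed protein genes LOC_Os12g16280, LOC_Os01g45914 and LOC_Os09g20024 differed by 5.67 ± 0.08, 5.47 ± 0.14 and 5.43 ± 0.07. Their levels in CHT025 early were 0.00667 ± 0.0115 and 0.0133 ± 0.0115 FPKM for LOC_Os12g16280 and 7.45 ± 0.633 and 9.16 ± 1.47 FPKM for LOC_Os01g45914, and LOC_Os09g20024 was listed at 0 in all 6 libraries. In WFB early on day 1 the acyl-CoA dehydrogenase gene was at 150 FPKM, LOC_Os12g16280 at 51.9, LOC_Os01g45914 at 44.0 and LOC_Os09g20024 at 43.1 FPKM. The means of these genes were at most 0.22 FPKM in every other WFB group. Every difference to WFB early uses these day 1 libraries of WFB. What sets them apart from the other WFB libraries was not tested.

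Against WFYT025 early, the ZIM gene LOC_Os03g08330 differed by -7.63 ± 0.23, the bHLH gene LOC_Os04g23550 by -7.58 ± 0.36, the hydroxylase LOC_Os02g47470 by -7.40 ± 0.17, the AP2 gene LOC_Os10g41330 by -6.58 ± 0.51, the CAF1 gene LOC_Os04g58810 by -6.32 ± 0.26, WRKY71 (LOC_Os02g08440) by -6.29 ± 0.15, WRKY24 (LOC_Os01g61080) by -5.40 ± 0.19, NAC67 (LOC_Os03g60080) by -4.67 ± 0.11 and the early light-induced protein gene LOC_Os07g08160 by -2.24 ± 0.14. The core histone genes LOC_Os03g17100, LOC_Os10g39410 and LOC_Os09g38020 differed by 3.24 ± 0.15, 3.08 ± 0.13 and 2.95 ± 0.13, the AT-hook gene LOC_Os07g08710 by 2.84 ± 0.11, histone H1 (LOC_Os04g18090) by 2.66 ± 0.10 and UOS1 (LOC_Os02g04510) by 2.14 ± 0.05. The adjusted p of these differences ran from 9.18e-23 for the hydroxylase to 3.62e-08 for the early light-induced protein gene.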

How the results depend on the processing

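With a pseudocount of 0.1 the counts at least 2-fold were 1171 higher and 1970 lower, and 2023 genes differed from WFB. The median shift gave 7105 genes called higher, 954 at least 2-fold. The median change of all tested genes was 0.081 on that scale and -0.085 on the main one. Which scale is the right one was not tested. Under the other pseudocount, filters and moderation each of the 4 counts of calls and the 3 of differences stayed within 1.5 times, as did the 4 counts of calls in a fit of the 6 libraries alone. Leaving out 1 library gave 4260 to 4524 genes higher, 6935 to 7141 lower, 627 to 639 and 1186 to 1230 at least 2-fold, and differences of 1259 to 1268 against the middle season, 1264 to 1289 against WFB and 505 to 518 against WFYT025. Without replicate 1 of both days these differences were 1215, 1242 and 509. After the median shift the change turned to 0.13 for sucrose synthase LOC_Os06g09450, 0.0521 for LOC_Os12g17600, 0.0631 for LOC_Os12g19381 and 0.17 for LOC_Os09g20024, which is listed at 0 in the 6 libraries, and after quantile normalization it was 0 for LOC_Os12g19381. Whether replicate numbers pair the libraries is not settled. Deviations of same-numbered libraries correlated at 0.248, 0.041 and 0.146, and those of other numbers from -0.214 to 0.121. Replicate 2 of day 1 correlated better with replicate 3 of day 10, at 0.121, than with replicate 2. With a replicate block, 4613 genes were higher, 7383 lower, 629 and 1204 at least 2-fold, and 1298, 1277 and 520 differed from the middle season, WFB and WFYT025. Depth is unknown, so changes of genes near 1 FPKM are the least certain.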

Other observations

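Several smaller groups also held large changes in CHT025 early. Beside the counts below, 25.1% of all tested genes were called higher and 39.9% lower. Of 20 tested genes of phosphate sensing and recycling, 9 were called higher and 6 lower. The phosphate transporter genes LOC_Os03g05620 and LOC_Os10g30790 fell from 27.9 ± 1.51 to 10.9 ± 0.587 FPKM and from 11.6 ± 1.18 to 5.63 ± 0.656 FPKM, while another (LOC_Os06g29790) rose from 5.89 ± 0.272 to 11.6 ± 0.547 FPKM. A glycerophosphodiester phosphodiesterase gene (LOC_Os02g31030), of enzymes that free phosphate from lipid headgroups, rose from 1.33 ± 0.382 to 7.0 ± 0.219 FPKM. Of 19 antioxidant genes 7 rose and 7 fell: cytosolic-type copper/zinc superoxide dismutase (LOC_Os03g22810) rose from 52.1 ± 2.04 to 103 ± 1.36 FPKM and a chloroplast superoxide dismutase (LOC_Os06g05110) fell from 44 ± 0.635 to 18 ± 0.179 FPKM. Of 26 class III peroxidases, 10 fell, near the 39.9% of all tested genes, and 8 rose (10 and 11 after the median shift). At least 2-fold, 5 of them fell, where 6.48% of all tested genes did. LOC_Os08g41090 fell from 55.6 ± 3.22 to 8.08 ± 0.892 FPKM.

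Of 60 phenylpropanoid and flavonoid genes 23 rose and 13 fell (31 and 12 after the median shift), among them cinnamoyl-CoA reductase LOC_Os09g25150, a step towards lignin, which rose from 18.9 ± 4.29 to 48.3 ± 7.35 FPKM. The late embryogenesis abundant gene LOC_Os01g21250 rose from 456 ± 10.6 to 989 ± 20.8 FPKM and changed by 5.03 in WFB early and -1.06 in CHT025 middle. Of 39 lipid transfer protein genes 9 rose and 11 fell (13 and 7 after the median shift), with LTPL124 (LOC_Os04g52260) at 219, 224 and 238 FPKM on day 1 and 17.6, 16.5 and 16.5 FPKM on day 10, high in all libraries of day 1. The auxin-repressed protein genes fell, with small changes in CHT025 middle. LOC_Os11g44810 changed by -4.01 and -0.16, LOC_Os09g26620 by -1.97 and 0.45 and LOC_Os03g22270 by -1.30 and 0.02 in the early and the middle season. Of 82 major facilitator transporters 31 rose and 24 fell (37 and 16 after the median shift), and LOC_Os01g36720 rose from 2.92 ± 0.040 to 20.7 ± 2.11 FPKM. Phytochrome C (LOC_Os03g54084), a red-light receptor, fell from 28.5 ± 0.42 to 11.6 ± 0.286 FPKM. The gene examples were chosen after their values were seen.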
